A study of Mus musculus with 9 samples.

Results

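The extracellular matrix genes of adipose tissue endothelium were followed across 9 mouse libraries: every gene listed in the deposited table that encodes a numbered collagen chain or a laminin alpha, beta or gamma chain, together with Nid1, Nid2, Hspg2, Agrn, Sparc, Fn1, Fbn1 and Eln. The symbols alone chose them, and 46 of the 11802 listed genes qualified. In the GENCODE M21 annotation 63 genes fit these names; the 17 without a value in the table were not analysed here. The 46 were read as 13 genes of the endothelial basement membrane, 7 other laminin and type IV collagen chains, 9 fibrillar collagen chains, 13 other collagens, and 4 genes of elastic and adhesive matrix (Eln, Fbn1, Fn1 and Sparc).

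Endothelial cells rest on a basement membrane, a thin sheet built from a laminin network and a type IV collagen network that nidogens and the heparan sulfate proteoglycans perlecan (Hspg2) and agrin (Agrn) link together. Laminins are trimers of one alpha, one beta and one gamma chain, and type IV collagen is a trimer of alpha chains, so each network needs its chains made together. Fibrillar collagens of types I, III and V form the cable-like fibres of the connective tissue around vessels and fat cells, and fibroblasts are their best known source.

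The study measured RNA on tagged ribosomes from 50 to 100 mg of white adipose tissue per capture, to compare endothelium with and without Mfn2, a gene for a mitochondrial fusion protein. Both groups carried the Pdgfb-iCreERT2 driver, an inducible Cre expressed in endothelium, and the RiboTag allele Rpl22HA, which lets Cre turn on an HA tag on ribosomes for antibody capture. The 4 libraries labelled WT (WT1 to WT4) were Pdgfb-iCreERT2:Rpl22HA with Mfn2 present in endothelial cells, and the 5 labelled KO (KO1 to KO5) were Pdgfb-iCreERT2:Mfn2ideltaEC:Rpl22HA with Mfn2 absent from them. The labels give biological replicate numbers but no animal, age, sex or batch, and replicates are taken as given, so each p-value measures the spread between these libraries. A capture is a bulk sample, so fewer cells of a type and less RNA per cell cannot be told apart.

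Listed reads ranged from 1034753 (WT4) to 3829356 (KO5). Mfn2 itself was at 20.2, 55.8, 30.5 and 38.0 CPM (reads scaled to the library total) in WT1 to WT4 and 129.6, 35.4, 57.0, 65.6 and 46.0 CPM in KO1 to KO5, a difference of 0.81 (SE 0.446, limma adjusted p = 0.131) in log2(CPM + 1) as deposited and −0.16 (SE 0.365, limma adjusted p = 0.898) after each library's median over all genes was subtracted. The direction thus turned with the scale, and neither difference passed the test, so the level of Mfn2 RNA did not separate the labels. The table holds whole-gene values in which a deleted exon cannot be seen, and KO below stands for the label only. The 2 mitochondrial ribosomal RNAs took 64.8%, 47.5%, 48.3% and 13.9% of the reads in WT1 to WT4 and 12.8% to 25.2% in KO, and the median log2 difference over all genes, KO minus WT, was 1.10 in the deposited CPM. Differences are therefore given on 2 scales, both in log2(CPM + 1): as deposited, and relative to the library median, where each library's median over all genes was first subtracted and the median difference over all genes was 0.12. Endothelial markers were present in every library, with 0 of 16 at 0 CPM. Their summed level was 967 to 3451 CPM in WT and 3039 to 7165 CPM in KO. The 12 adipocyte markers summed to 4432 to 7907 CPM in WT and 10412 to 21484 CPM in KO, above the endothelial sum in every library. The 7 measured mural markers summed to 116 to 242 CPM in WT and 298 to 574 CPM in KO. The part of these cell types in the levels of the matrix genes was not tested. Skeletal muscle markers summed to 96.7 to 261 CPM in WT and 435 to 8184 CPM in KO, highest in KO5; of 8 mesothelial markers, 0 were among the listed genes.

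Matrix genes were among the most abundant RNAs in these captures. Ordered by mean CPM over the 9 libraries, Col3a1 had rank 17 of 11802 genes, Col4a1 rank 20, Sparc rank 26, Col1a1 rank 31, Col4a2 rank 36, Col1a2 rank 56, Hspg2 rank 59 and Eln rank 80. Of the 46, 24 had a mean of at least 100 CPM and 21 a mean below 50 CPM. Levels were also divided by exon length, taken as the merged exons of all annotated transcripts of a gene (12426 bases for Col1a2, 6563 for Col1a1). Which transcripts were in use was not tested, so levels and ratios of different genes per kilobase compare only roughly. Per kilobase of annotated exon, Sparc, which encodes a collagen-binding glycoprotein, was highest at 301 ± 183 (SD, n = 4) in WT and 577 ± 186 (SD, n = 5) in KO. In order of the WT mean, Col3a1 followed at 249.7 ± 148 (SD, n = 4) in WT and 320.2 ± 244 (SD, n = 5) in KO, Col4a1 at 202 ± 96.9 (SD, n = 4) in WT and 455 ± 181 (SD, n = 5) in KO, and Col1a1 at 197 ± 129 (SD, n = 4) in WT and 271 ± 268 (SD, n = 5) in KO. The spread of these 4 genes between libraries overlapped, so their order by group mean is only a description. Their order within each library was not tested.

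**Figure D1:**
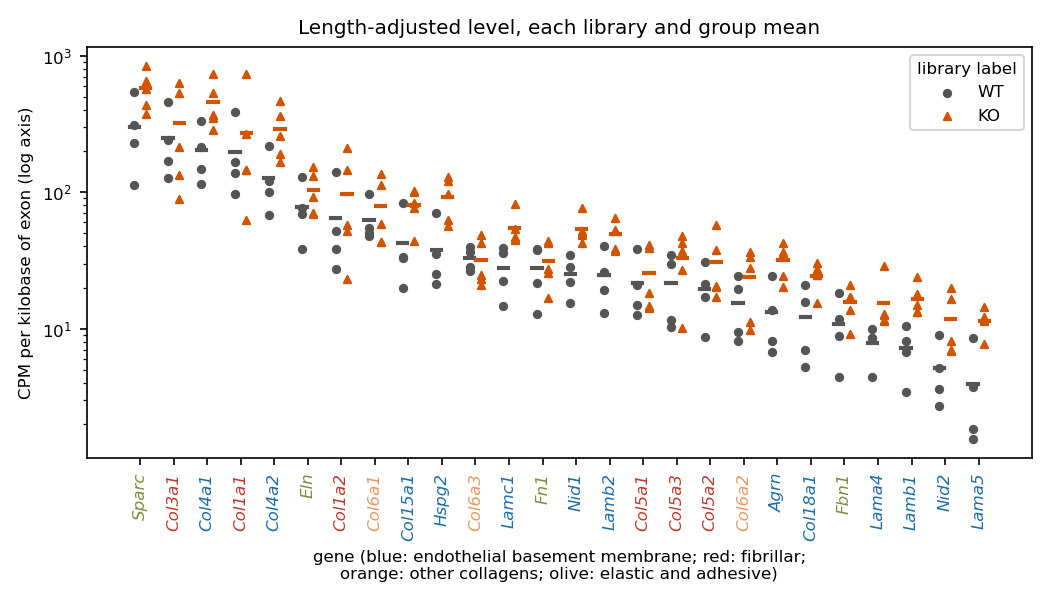
CPM per kilobase of exon (log axis) for the 26 matrix genes with the highest mean CPM, ordered by their WT mean, with each library as a point and each group mean as a short line. Values are from the deposited CPM, where the median log2 difference over all genes was 1.10. The KO mean lay above the WT mean for Col4a1 (455 in KO against 202 in WT, CPM per kilobase). So it did for Col3a1 (320 in KO against 250 in WT) and Col1a1 (271 in KO against 197 in WT). For each of these genes the points of both groups overlapped.

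The endothelial basement membrane was represented by 13 genes, all with values in the 9 libraries. Its 2 collagen IV chains were the most abundant. Col4a1 (ENSMUSG00000031502, chromosome 8, 11198423 to 11312826, minus strand, GRCm38) and Col4a2 (ENSMUSG00000031503, chromosome 8, 11312805 to 11449287, plus strand) encode the alpha chains of the vascular type IV collagen trimer and start head to head, so that their first exons share 22 bases on opposite strands. That stretch, positions 11312805 to 11312826, is shown in capitals within the surrounding 30 bases, chr8:11312801-11312830 on the plus strand of GRCm38.p6 (RefSeq assembly), because each gene starts at one edge of it and runs across it, in opposite directions.

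Col4a1 and Col4a2: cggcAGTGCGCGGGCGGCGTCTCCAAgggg

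Col4a1 was at 855, 1601, 1097 and 2491 CPM in WT1 to WT4 and 2116, 2768, 2610.4, 4001 and 5476 CPM in KO1 to KO5. Col4a2 was at 452, 806, 659.7 and 1439 CPM in WT1 to WT4 and 1101, 1270, 1714, 2412 and 3076 CPM in KO1 to KO5. For both genes WT4 was the highest WT library and lay above KO1, so the groups overlapped. Col4a1 differed by 1.20 (SE 0.486, limma adjusted p = 0.052) as deposited and by 0.22 (SE 0.344, limma adjusted p = 0.841) relative to the library median. The corresponding values for Col4a2 were 1.21 (SE 0.456, limma adjusted p = 0.0397) and 0.24 (SE 0.318, limma adjusted p = 0.817). The 2 chains kept a nearly fixed ratio: per kilobase, Col4a1 over Col4a2 lay between 1.35 (KO3) and 1.93 (KO2), with a mean of 1.61 ± 0.131 (SD, n = 4) in WT and 1.61 ± 0.224 (SD, n = 5) in KO.

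Hspg2 (ENSMUSG00000028763, chromosome 4, 137468769 to 137570630, plus strand) encodes perlecan, the large heparan sulfate proteoglycan of the basement membrane. The 216 bases just before its annotated start, chr4:137468553-137468768 on the plus strand of GRCm38.p6, are shown beside those of Col3a1 below because the 2 genes are compared later as a ratio. Capitals mark GGGCGG, the core of the GC box, found 5 times in these letters; CCAAT and TATAAA were not found.

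Hspg2: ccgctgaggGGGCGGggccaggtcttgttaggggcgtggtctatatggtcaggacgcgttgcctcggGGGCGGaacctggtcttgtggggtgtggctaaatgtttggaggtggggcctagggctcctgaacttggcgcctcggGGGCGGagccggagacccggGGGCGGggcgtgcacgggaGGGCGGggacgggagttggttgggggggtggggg

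Hspg2 was at 306, 508, 360.3 and 999.7 CPM in WT1 to WT4 and 812, 889, 1383, 1722 and 1835 CPM in KO1 to KO5. WT4 lay above KO1 and KO2, and the other 3 WT libraries lay below all KO libraries. The difference was 1.37 (SE 0.437, limma adjusted p = 0.0209) as deposited and 0.39 (SE 0.300, limma adjusted p = 0.643) relative to the library median. Col15a1, which encodes a collagen that joins basement membranes to the fibres beneath, was at 126, 214, 208 and 532 CPM in WT1 to WT4 and 280.5, 489, 525, 637 and 643 CPM in KO1 to KO5. The groups overlapped through WT4, and Col15a1 differed by 1.08 (SE 0.418, limma adjusted p = 0.0451) as deposited and 0.10 (SE 0.293, limma adjusted p = 0.926) on the relative scale. Agrn, the gene of the proteoglycan agrin, had means of 123 ± 74.9 CPM (SD, n = 4) in WT and 296 ± 84.6 CPM (SD, n = 5) in KO. Col18a1, whose product contains endostatin, had means of 85.6 ± 51.9 CPM (SD, n = 4) in WT and 172 ± 39.0 CPM (SD, n = 5) in KO. For both genes the groups overlapped through WT4. Relative differences were 0.41 (SE 0.286, limma adjusted p = 0.598) for Agrn and 0.21 (SE 0.309, limma adjusted p = 0.839) for Col18a1.

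Laminin chains of the vascular basement membrane are Lama4 and Lama5 (alpha), Lamb1 and Lamb2 (beta) and Lamc1 (gamma), the gamma chain that most laminins contain. Lamc1 was at 122, 296, 185 and 324 CPM in WT1 to WT4 and 368, 388, 442, 375 and 682 CPM in KO1 to KO5. Every KO library lay above every WT library in CPM, as for 18.7% of all genes, and KO5 was highest. The difference was 1.02 (SE 0.401, limma adjusted p = 0.0472) as deposited but 0.04 (SE 0.267, limma adjusted p = 0.967) relative to the library median. Lamb2 was at 79.7, 159, 117 and 247 CPM in WT1 to WT4 and 235, 226, 395, 317 and 319 CPM in KO1 to KO5; WT4 lay above KO1 and KO2. It differed by 1.07 (SE 0.399, limma adjusted p = 0.0383) as deposited and 0.10 (SE 0.256, limma adjusted p = 0.919) on the relative scale. Lamb1 had means of 71.2 ± 29.2 CPM (SD, n = 4) in WT and 165 ± 44.3 CPM (SD, n = 5) in KO. Its relative difference was 0.29 (SE 0.277, limma adjusted p = 0.73). Lama4, the alpha chain typical of endothelium, had means of 94.9 ± 29.1 CPM (SD, n = 4) in WT and 187 ± 91.7 CPM (SD, n = 5) in KO, with KO1 at 350 CPM and the other KO libraries at 137 to 154 CPM. Relative to the library median Lama4 differed by −0.05 (SE 0.308, limma adjusted p = 0.966). Lama5, the other alpha chain of vessels, was at 17.6, 42.7, 21.0 and 97.9 CPM in WT1 to WT4 and 130.2, 87.4, 163, 138 and 134 CPM in KO1 to KO5, and WT4 lay above KO2. Its difference was the largest of the 13, 1.82 (SE 0.440, limma adjusted p = 0.00675) as deposited, against 0.85 (95% interval 0.19 to 1.50, limma adjusted p = 0.296) relative to the library median.

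Ratios between the laminin chains differed more between libraries than that of the type IV collagen chains. Lama4 and Lama5 are alternative alpha chains and Lamb1 and Lamb2 alternative beta chains, unlike Col4a1 and Col4a2, which share a trimer. Lama5 had 39, 108, 40 and 103 reads in WT1 to WT4, against 1005 to 2038 for Col4a2. The part of counting error, or of the choice between alternative chains, in the spread of these ratios was not tested. Lama4 over Lama5, per kilobase, ranged from 0.881 (KO3) to 4.62 (WT3), with a mean of 2.73 ± 1.45 (SD, n = 4) in WT and 1.39 ± 0.686 (SD, n = 5) in KO, and the groups overlapped. Lamb2 over Lamb1 ranged from 1.62 (KO1) to 4.37 (KO3). The summed beta chains over Lamc1 ranged from 0.852 (KO5) to 1.49 (KO3), and the summed measured alpha chains Lama4 and Lama5 over Lamc1 ranged from 0.297 (KO5) to 0.910 (KO1).

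Nidogens bridge laminin and type IV collagen. Nid1 (ENSMUSG00000005397, chromosome 13, 13437551 to 13512269, plus strand) was at 107, 239, 152 and 197 CPM in WT1 to WT4 and 297, 338, 363, 348 and 528 CPM in KO1 to KO5. As for Lamc1, the groups did not overlap in CPM and KO5 was highest. Nid1 differed by 1.14 (SE 0.391, limma adjusted p = 0.0281) as deposited and 0.16 (SE 0.267, limma adjusted p = 0.856) relative to the library median. Nid2 had means of 26.5 ± 14.4 CPM (SD, n = 4) in WT and 60.5 ± 31.6 CPM (SD, n = 5) in KO. Its relative difference was 0.18 (SE 0.352, limma adjusted p = 0.884). Nid1 over Nid2 per kilobase ranged from 3.03 (KO4) to 9.58 (WT2). Nid2 shares 437 exon bases, 8.45% of its exons, with Rtraf on the opposite strand (mean 10.0 CPM), and the library kit does not mark strand, so reads there cannot be told apart.

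Over the list, 10 of the 13 basement membrane genes were called higher in KO in the deposited CPM and 0 lower; the exceptions were Nid2, Col4a1 and Lama4, with limma adjusted p of 0.0507, 0.052 and 0.0675. Across all genes 32.0% were called higher and 0.203% lower by the same limma test, and 13 of all 46 matrix genes (28.3%) were called higher and 0 lower. The median difference of the 13 was 1.18, against 1.10 for all genes, and among the 1104 genes with a mean of at least 100 CPM 43.9% were called higher. Relative to the library median, 12 of the 13 lay above 0 with a median of 0.21, and 0 were called in either direction. There 57.9% of all genes lay above 0, and 47.2% of those with a mean of at least 100 CPM. The background on that scale was 0.0339% called higher and 0.0763% lower. At an unadjusted limma p under 0.05 on that scale there was 1 of the 13, Lama5, beside 1378 of all 11802 genes. On recovered reads, edgeR (background 0.00847% higher, 0.0339% lower) and DESeq2 (0.357% and 1.38% of 8124 genes) called 0 of the 13. The number of matrix genes called higher as deposited was 1 without WT1, 20 without WT4 and 0 with a covariate for the mitochondrial rRNA share. Groups did not overlap in CPM for 4 of them (Lama4, Lamb1, Lamc1 and Nid1), where 18.7% of all genes had every KO library above every WT library and 0.0254% every KO library below, and for 0 of them in relative values, where the share of all genes was 2.07%.

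The fibrillar collagens include 3 of the most abundant matrix RNAs, Col3a1, Col1a1 and Col1a2, and their levels varied widely between libraries of either label. Col3a1 (ENSMUSG00000026043, chromosome 1, 45311538 to 45349706, plus strand) encodes type III collagen of reticular fibres. The 250 bases before its annotated start, chr1:45311288-45311537 on the plus strand of GRCm38.p6, are shown for the contrast with Hspg2. Capitals mark TATAAA, found at 1 place; GGGCGG and CCAAT were not found.

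Col3a1: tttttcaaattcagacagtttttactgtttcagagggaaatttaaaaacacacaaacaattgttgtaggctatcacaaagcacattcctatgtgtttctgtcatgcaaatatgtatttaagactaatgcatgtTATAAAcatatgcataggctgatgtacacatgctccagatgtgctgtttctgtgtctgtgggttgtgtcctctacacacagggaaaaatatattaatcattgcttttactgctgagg

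Col3a1 was at 1252, 4518, 2364 and 1672 CPM in WT1 to WT4 and 1318, 5219.6, 2122, 881 and 6178 CPM in KO1 to KO5. WT2, KO2 and KO5 were high and KO4 was lowest, so the groups overlapped throughout. The difference was 0.14 (SE 0.538, limma adjusted p = 0.825) as deposited and −0.83 (SE 0.535, limma adjusted p = 0.577) relative to the library median. Col1a1 (ENSMUSG00000001506, chromosome 11, 94936224 to 94953042, plus strand), the alpha 1 chain of type I collagen, was at 905, 2535, 1091 and 635 CPM in WT1 to WT4 and 954, 4796, 956, 411 and 1768 CPM in KO1 to KO5. Its partner chain Col1a2 (ENSMUSG00000029661, chromosome 6, 4504814 to 4541544, plus strand) was at 479, 1742, 651 and 342 CPM in WT1 to WT4 and 643, 2605, 710.5, 287 and 1801 CPM in KO1 to KO5. For both chains KO2 was the highest library, WT2 was the highest WT library and KO4 the lowest. Relative to the library median Col1a1 differed by −0.81 (SE 0.577, limma adjusted p = 0.614) and Col1a2 by −0.51 (SE 0.569, limma adjusted p = 0.772). Per kilobase, Col1a1 over Col1a2 ranged from 1.86 (KO5) to 3.58 (WT1).

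Type V collagen is built into type I fibres and takes part in starting them. Col5a2 was at 83.2, 294, 203 and 164 CPM in WT1 to WT4 and 198, 551, 193, 162 and 363 CPM in KO1 to KO5. Col5a1 was at 108, 324, 179 and 127 CPM in WT1 to WT4 and 154, 351, 121, 125 and 330 CPM in KO1 to KO5. Both were highest in KO2. Col5a3 was at 79.2, 237, 201 and 70.3 CPM in WT1 to WT4 and 326, 251, 182, 69.1 and 290.1 CPM in KO1 to KO5, with KO1 highest and KO4 and WT4 lowest. Relative differences were −0.35 (SE 0.387, limma adjusted p = 0.771) for Col5a2, −0.77 (SE 0.400, limma adjusted p = 0.469) for Col5a1 and −0.35 (SE 0.462, limma adjusted p = 0.81) for Col5a3. The 3 remaining fibrillar chains, Col27a1, Col11a2 and Col11a1, had means over the 9 libraries of 15.9, 9.01 and 2.97 CPM.

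Of the 9 fibrillar chains, 0 were called in the deposited CPM, beside 32.0% of all genes called higher. Their median difference as deposited was 0.62, against 1.10 for all genes. There 1 had an unadjusted limma p under 0.05, beside 5904 of all 11802 genes. Relative to the library median, 8 lay below 0 and 1 above (Col11a2). There 57.9% of all genes lay above 0, and 47.2% of those with a mean of at least 100 CPM. The fibrillar median was −0.35, and 0 of the 9 were called, with 0 at an unadjusted limma p under 0.05. edgeR and DESeq2 on recovered reads also called 0. The sign of the fibrillar median turned with the treatment of the mitochondrial rRNAs, and the size of the basement membrane median moved: with the 2 rRNAs left out of the totals the medians were 0.60 for the basement membrane list and 0.03 for the fibrillar list, and with the rRNA share as a covariate, an alternative added after seeing the data, they were 0.0046 and 0.45 on the relative scale.

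**Figure D2:**
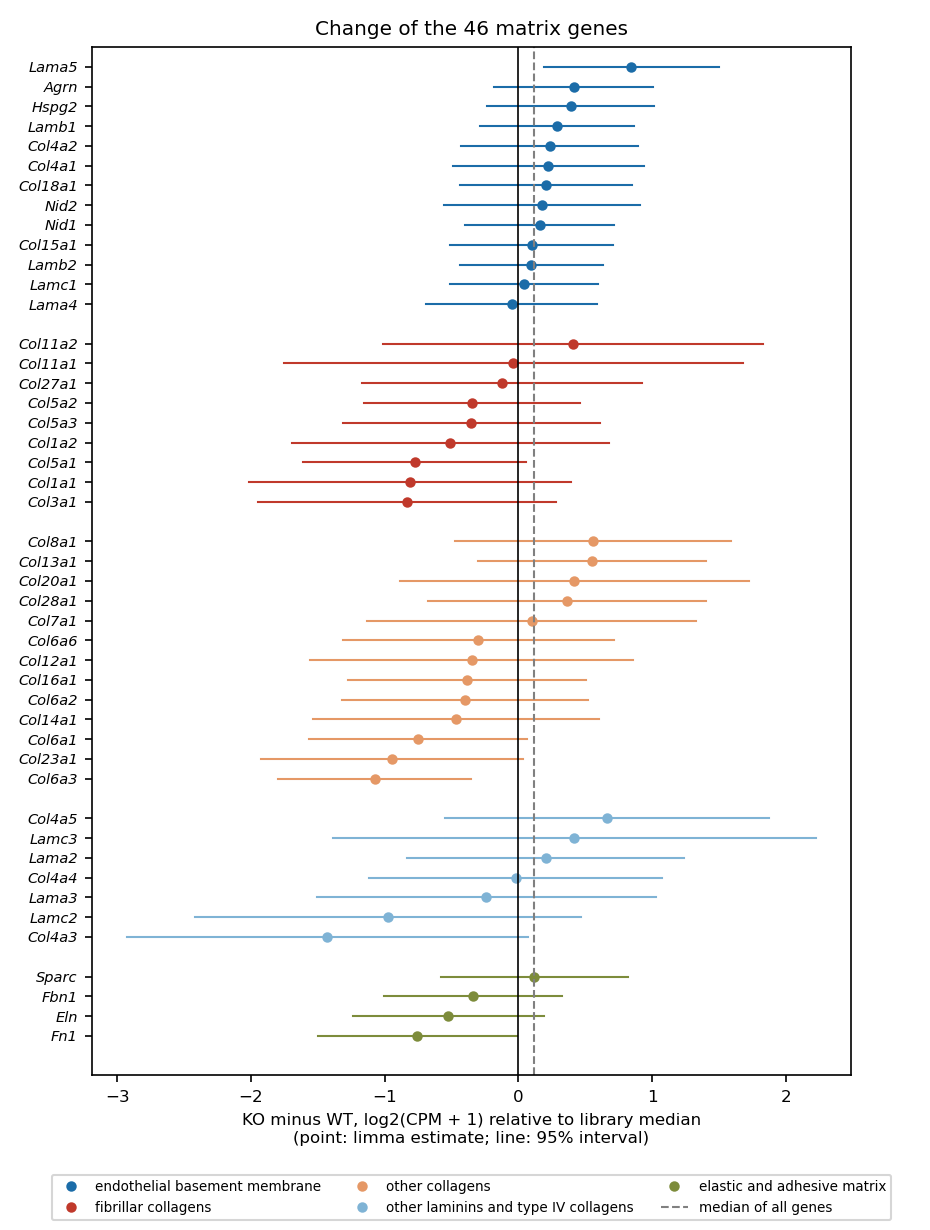
KO minus WT difference of each of the 46 genes, in log2(CPM + 1) relative to the library median, as limma estimate (point) with 95% interval (line), grouped by list; the dashed line is the median of all genes, 0.12. Of the 13 basement membrane genes 12 lie right of 0 and of the 9 fibrillar chains 8 lie left of it. Only Lama5, Col6a3 and Fn1 have an interval that leaves out 0. On this scale 57.9% of all genes lay above 0. Among all 11802 genes, 1378 had an unadjusted limma p under 0.05 on this scale.

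The lists differed in how far they spread between libraries of the same label. The pooled standard deviation within groups, in log2 relative to the library median, was 0.232 (Lamb2) to 0.477 (Col18a1) for the 11 basement membrane genes with a mean of at least 100 CPM, median 0.378. For the 6 fibrillar chains above the same level it was 0.775 (Col5a2) to 1.29 (Col1a1), median 1.05. These ranges did not overlap, which is given as a description without a test, and the median over all 1104 genes of that abundance was 0.45, with quartiles of 0.333 and 0.603. From the lowest to the highest of the 9 libraries, Col4a1 spanned 1.15, Hspg2 1.14 and Lamc1 0.73 log2 units, while Col3a1 spanned 3.36, Col1a2 3.60 and Col1a1 3.90. Described by library, the mean relative level of the fibrillar list was 3.41, 3.74, 3.08 and 2.08 in WT1 to WT4 and 2.89, 3.91, 2.52, 1.52 and 2.69 in KO1 to KO5. WT2 was among the 3 highest libraries for 7 of the 9 chains, and so was KO2; KO4 was the lowest library for 5 chains and among the 3 lowest for 8. The mean of the basement membrane list lay between 3.62 and 4.02 in WT and between 3.80 and 4.25 in KO.

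**Figure D3:**
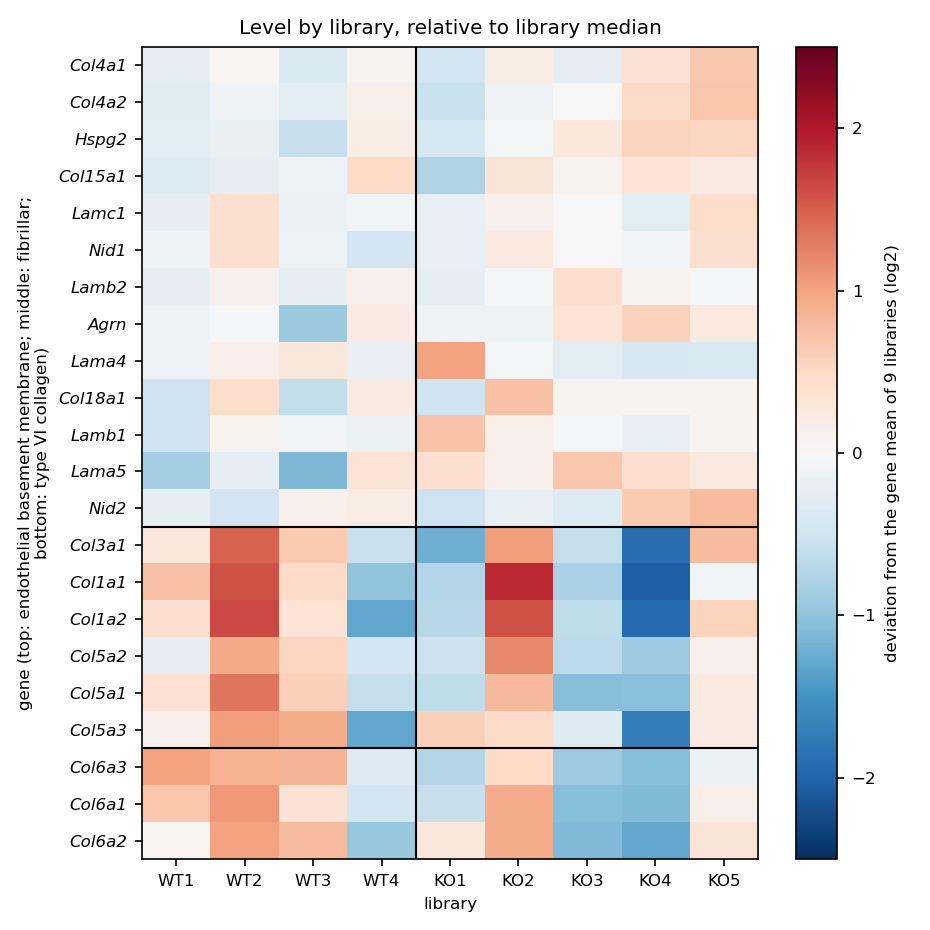
Deviation of each gene from its own mean over 9 libraries, in log2 relative to the library median (red above, blue below), for the basement membrane list, the 6 fibrillar chains with a mean of at least 100 CPM and the 3 abundant type VI chains; columns are libraries. Fibrillar and type VI chains are high together in WT2 and KO2 and low together in KO4, and Col1a1 spans 3.90 log2 units, whereas the basement membrane genes span 0.67 (Lamb2) to 1.79 (Lama5).

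Fibroblast markers other than collagens and laminins, some of them matrix genes too, were measured beside these values. Among them were Cd34, Ly6a and Gsn, and whether the reads of any marker came from fibroblasts was not tested. Of 15 such markers 11 were listed, and 1 of them, Mfap5, had 0 reads in WT2 and WT4, which allows up to 1.20 and 2.90 CPM there. Such limits cover counting error only, and PCR copies of a molecule may be counted more than once. Their sum was 359.6 to 1185 CPM in WT and 874 to 1175 CPM in KO, most of it from Gsn, the gene of the actin-severing protein gelsolin, at 247 to 901 CPM in WT and 625 to 783 CPM in KO. The mean relative level of the 11, in which each gene counts alike, was 0.896, 0.904, 0.891 and 0.087 in WT1 to WT4. In KO1 to KO5 it was 0.19, 0.73, 0.42, 0.64 and 0.54. KO2 was the highest KO library, as for the fibrillar list, while WT1, WT2 and WT3 were nearly equal. KO4, the lowest library of the fibrillar list, lay above KO1, KO3 and KO5 here. Of the 11, 2 were called higher and 0 lower as deposited, beside 32.0% of all genes called higher, with a median difference of 0.75. On the relative scale 0 of the 11 were called, with a median of −0.23. Dcn, the proteoglycan decorin of fibroblasts, was at 4.50, 23.3, 16.8 and 0.950 CPM in WT1 to WT4 and 14.6, 17.7, 10.8, 20.5 and 51.4 CPM in KO1 to KO5, and Pdgfra, a fibroblast receptor, at 28.8, 17.8, 7.35 and 39.9 CPM in WT1 to WT4 and 46.4, 37.8, 33.2, 27.5 and 28.8 CPM in KO1 to KO5. In CPM Dcn was highest in KO5 and Pdgfra in KO1, and relative to the library median they were highest in WT2 and WT1. Per kilobase of exon, Dcn was at 1.95 ± 1.79 (SD, n = 4) in WT and 3.94 ± 2.79 (SD, n = 5) in KO, below the levels of Col3a1 and Col1a1 given above. The mean relative level of the fibrillar list exceeded that of the fibroblast markers by 2.38 ± 0.370 (SD, n = 4) in WT and 2.20 ± 0.863 (SD, n = 5) in KO, least in KO4 at 0.87. Endothelial markers were called higher in 15 of 16 cases in the deposited CPM, beside 32.0% of all genes. Relative to the library median 0 of 16 were called higher, beside 0.0339%, and their median was 0.52. On that scale 16 of 16 lay above 0, beside 57.9% of all genes. The basement membrane list lay above the endothelial markers by 1.09 ± 0.117 (SD, n = 4) in WT and 0.81 ± 0.327 (SD, n = 5) in KO, in mean relative log2 level. The part of these cell types in the differences was not tested.

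The direct comparison of both matrices used the ratio of a basement membrane gene to a fibrillar gene within a library, which, apart from the pseudocount of 1, does not depend on how a library is scaled. The log2 ratio of Col4a1 to Col1a1 was −0.08, −0.66, 0.01 and 1.97 in WT1 to WT4 and 1.15, −0.79, 1.45, 3.28 and 1.63 in KO1 to KO5. WT4 and KO4 were high and WT2 and KO2 low, so the groups overlapped. The difference, KO minus WT, was 1.03, from 0.31 ± 1.15 (SD, n = 4) to 1.34 ± 1.45 (SD, n = 5; exact two-sided permutation p = 0.302, adjusted over 3 pairs 0.421). For Col4a2 to Col1a2 the difference was 0.75, from 0.22 ± 1.33 (SD, n = 4) to 0.97 ± 1.47 (SD, n = 5; exact two-sided permutation p = 0.421, adjusted over 3 pairs 0.421). The log2 ratio of Hspg2 to Col3a1 was −2.03, −3.15, −2.71 and −0.74 in WT1 to WT4 and −0.70, −2.55, −0.62, 0.97 and −1.75 in KO1 to KO5, and its difference was 1.23, from −2.16 ± 1.05 (SD, n = 4) to −0.93 ± 1.33 (SD, n = 5; exact two-sided permutation p = 0.167, adjusted over 3 pairs 0.421). With 4 against 5 libraries the smallest p this test can give is 0.00794. None of the 3 ratios was shown to differ between the labels beyond the spread between libraries, and each depended on single libraries. Without KO4 the differences were 0.55 for Col4a1 to Col1a1, 0.22 for Col4a2 to Col1a2 and 0.75 for Hspg2 to Col3a1, and without WT4 they were 1.59, 1.36 and 1.70. Col4a1 to Col1a1 was 1.57 without KO2, and Col4a2 to Col1a2 was 1.25 without KO2 and 0.30 without WT2. As means over the lists, basement membrane minus fibrillar was 0.21, 0.23, 0.54 and 1.94 in WT1 to WT4 and 0.91, 0.14, 1.50, 2.62 and 1.56 in KO1 to KO5.

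**Figure D4:**
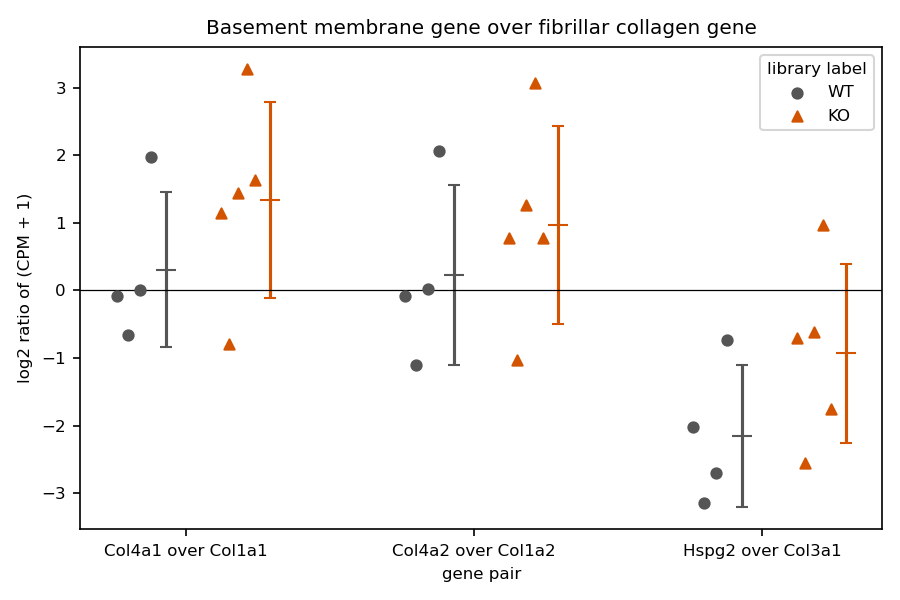
Log2 ratio of a basement membrane gene to a fibrillar collagen gene in each library, using CPM + 1, for 3 gene pairs; points are libraries, and each horizontal mark with its bar is the group mean with SD (n = 4 WT, n = 5 KO). In each pair WT4 is the highest WT library and lies within the KO range, and KO2 is the lowest KO library.

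Among the 13 other collagens the type VI chains were the most abundant. Type VI collagen forms beaded filaments around fat cells and vessels and is a trimer of Col6a1, Col6a2 and Col6a3. Col6a3 was at 338, 475, 436 and 316 CPM in WT1 to WT4 and 297, 577, 277, 251 and 511 CPM in KO1 to KO5. Its difference was −0.10 (SE 0.399, limma adjusted p = 0.838) as deposited, where the median over all genes was 1.10. Relative to the library median it had the lowest limma p of all 46 genes, unadjusted 0.00557, and did not pass adjustment over all genes, with a difference of −1.07 (95% interval −1.80 to −0.35, limma adjusted p = 0.234). Col6a1 was at 209, 425, 238 and 219 CPM in WT1 to WT4 and 254, 599.7, 189, 187 and 492 CPM in KO1 to KO5, and Col6a2 at 67.0, 202, 162 and 78.9 CPM in WT1 to WT4 and 232, 303, 92.7, 82.0 and 281 CPM in KO1 to KO5. Both were highest in KO2, and their relative differences were −0.75 (SE 0.391, limma adjusted p = 0.472) and −0.40 (SE 0.441, limma adjusted p = 0.769). For each of the 3 chains WT2 was the highest WT library, KO2 the highest KO library and KO4 the lowest KO library, as for Col1a1 and Col1a2.

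Col13a1, a membrane-bound collagen, was at 6.30, 11.1, 26.3 and 13.3 CPM in WT1 to WT4 and 29.1, 22.9, 63.8, 53.3 and 35.2 CPM in KO1 to KO5. Only WT3 reached into the KO range. It was called higher as deposited, 1.52 (SE 0.494, limma adjusted p = 0.0222), and not relative to the library median, 0.55 (SE 0.409, limma adjusted p = 0.634). Col8a1, a short-chain collagen of vessel walls, was the other of the 2 called among the 13, with means of 7.61 ± 7.28 CPM (SD, n = 4) in WT and 19.2 ± 6.98 CPM (SD, n = 5) in KO and a deposited difference of 1.53 (SE 0.586, limma adjusted p = 0.0419). Relative to the library median Col8a1 differed by 0.56 (SE 0.494, limma adjusted p = 0.705). The 2 called genes were 15.4% of the 13, beside 32.0% of all genes called higher as deposited. The median of the 13 was 0.63 as deposited and −0.35 on the relative scale, with 0 called there. In relative values Col23a1 was the 1 gene of the 46 whose KO libraries all lay below all WT libraries, where 1.74% of all genes did so; its means were 8.84 ± 4.05 CPM (SD, n = 4) in WT and 8.49 ± 1.30 CPM (SD, n = 5) in KO and its relative difference −0.94 (SE 0.470, limma adjusted p = 0.454). Col7a1 and Col27a1 were highest in KO1, at 77.1 and 45.2 CPM. Col13a1, Col8a1 and Col23a1 each had a mean below 50 CPM, and on the log2(CPM + 1) scale their folds are understated.

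The 7 other laminin and type IV collagen chains belong to basement membranes of muscle, epithelium and kidney, and all had means below 50 CPM. Lama2, the alpha chain of muscle laminin, was at 1.80, 15.4, 10.5 and 39.0 CPM in WT1 to WT4 and 41.9, 25.3, 13.3, 36.9 and 23.9 CPM in KO1 to KO5. In CPM Lama2 was highest in KO1, and the sum of skeletal muscle markers was highest in KO5. The part of muscle or any other cell type in the level of Lama2 was not tested. Lama3, an epithelial alpha chain, was at 1.80, 7.12, 43.6 and 10.4 CPM in WT1 to WT4 and 6.98, 12.4, 27.8, 33.4 and 13.6 CPM in KO1 to KO5, highest in WT3. Col4a4, a chain of the kidney type IV network, was at 3.15, 21.4, 5.25 and 6.65 CPM in WT1 to WT4 and 17.6, 20.6, 8.30, 9.96 and 23.4 CPM in KO1 to KO5. Groups overlapped for these 3, and none was called: relative differences were 0.21 (SE 0.497, limma adjusted p = 0.908) for Lama2, −0.24 (SE 0.608, limma adjusted p = 0.913) for Lama3 and −0.02 (SE 0.527, limma adjusted p = 0.993) for Col4a4. Col4a5 was the 1 of the 7 called higher as deposited, 1.64 (SE 0.647, limma adjusted p = 0.0477), with 1.80, 1.98, 2.10 and 1.90 CPM in WT1 to WT4 and 3.34, 4.30, 13.0, 17.6 and 9.77 CPM in KO1 to KO5. Across all genes 32.0% were called higher as deposited. The groups of Col4a5 did not overlap in CPM, where 18.7% of all genes had every KO library above every WT library. For Col4a5 this rests on 4, 5, 4 and 2 reads in WT1 to WT4 and 11 and 9 reads in KO1 and KO2. Counting error at such levels leaves the order of these libraries uncertain. On the relative scale the Col4a5 difference was 0.66 (SE 0.581, limma adjusted p = 0.703). The relative median of the 7 was −0.02.

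Sparc, Eln, Fn1 and Fbn1 complete the set, and 0 of the 4 were called on either scale. Across all genes 32.0% were called higher as deposited. Sparc (ENSMUSG00000018593, chromosome 11, 55394500 to 55423183, minus strand) was at 430.2, 1184, 872 and 2069.7 CPM in WT1 to WT4 and 1420, 2153, 1664, 2480.3 and 3207 CPM in KO1 to KO5. WT4 lay above KO1 and KO3, and the difference was 1.10 (SE 0.472, limma adjusted p = 0.0637) as deposited and 0.12 (SE 0.335, limma adjusted p = 0.921) relative to the library median. Eln, the gene of elastin, was at 619, 561, 308 and 1054 CPM in WT1 to WT4 and 563, 747, 1056, 1231 and 574 CPM in KO1 to KO5, highest in KO4, followed by KO3 and WT4. Its relative difference was −0.52 (SE 0.343, limma adjusted p = 0.583). Fn1, which encodes fibronectin, was at 149, 439.5, 452 and 253 CPM in WT1 to WT4 and 196, 493, 317, 299 and 511 CPM in KO1 to KO5, and WT2, WT3, KO2 and KO5 were high. Fn1 was among the 3 of 46 genes with an unadjusted limma p under 0.05 on the relative scale, beside 1378 of all 11802 genes. The Fn1 difference was −0.76 (95% interval −1.50 to −0.01, limma adjusted p = 0.418). Fbn1, which encodes the microfibril protein fibrillin 1, was at 54.0, 221, 108 and 142 CPM in WT1 to WT4 and 110.2, 206, 167, 206 and 253 CPM in KO1 to KO5, with a relative difference of −0.34 (SE 0.320, limma adjusted p = 0.731). Fbn1 shares 2442 exon bases, 20.1% of its exons, with Gm9913 on the opposite strand, and reads there cannot be told apart. Over all 46, 22 differences lay above 0 and 24 below on the relative scale, with a median of −0.03 against 0.12 for all genes. Of all genes 57.9% lay above 0.

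Genes that modify, sense and remodel these matrices were read from 3 further lists. Of 26 measured genes for collagen and laminin processing, 8 were called higher and 0 lower in the deposited CPM, beside 32.0% of all genes called higher, with a relative median of −0.06 and 0 called on that scale. P3h1, a prolyl 3-hydroxylase that modifies collagen chains, was at 2.70, 4.75, 0 and 0.950 CPM in WT1 to WT4 and 19.4, 18.2, 14.4, 18.2 and 21.6 CPM in KO1 to KO5; the 0 reads in WT3 allow up to 1.62 CPM. Its groups did not overlap in CPM, where 18.7% of all genes had every KO library above every WT library. P3h1 differed by 2.92 (SE 0.618, limma adjusted p = 0.00364) as deposited and 1.94 (SE 0.588, limma adjusted p = 0.201) on the relative scale. Pxdn, peroxidasin, which crosslinks type IV collagen, was at 24.3, 39.2, 47.8 and 78.9 CPM in WT1 to WT4 and 111, 126, 143, 149 and 232 CPM in KO1 to KO5 and also did not overlap, with 1.73 (SE 0.413, limma adjusted p = 0.00673) as deposited and 0.76 (SE 0.276, limma adjusted p = 0.286) on the relative scale. Tgm2, a crosslinking transglutaminase, differed by 1.74 (SE 0.423, limma adjusted p = 0.00713) and Plod3, a lysyl hydroxylase, by 1.72 (SE 0.456, limma adjusted p = 0.00977), both as deposited. On the relative scale Tgm2 differed by 0.76 (limma adjusted p = 0.326) and Plod3 by 0.75 (limma adjusted p = 0.373).

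Of 21 measured matrix receptors, 10 were called higher and 0 lower as deposited, beside 32.0% of all genes called higher, and 0 on the relative scale, where the median was 0.24. Itgb1, the beta subunit shared by most laminin and collagen integrins, was at 228, 311, 177 and 528 CPM in WT1 to WT4 and 530, 634, 1032, 1047 and 1471 CPM in KO1 to KO5, with 1.62 (SE 0.423, limma adjusted p = 0.00906) as deposited and 0.65 (SE 0.305, limma adjusted p = 0.416) on the relative scale. Itga6, the alpha subunit of a laminin receptor, differed by 1.72 (SE 0.440, limma adjusted p = 0.00838), Itgav by 2.32 (SE 0.582, limma adjusted p = 0.00777) and the proteoglycan Sdc4 by 1.57 (SE 0.478, limma adjusted p = 0.0173) as deposited. Their relative differences were 0.74 (limma adjusted p = 0.396) for Itga6, 1.34 (limma adjusted p = 0.305) for Itgav and 0.59 (limma adjusted p = 0.556) for Sdc4. Of 20 measured proteases and inhibitors, 11 were called higher and 0 lower as deposited, beside 32.0% of all genes called higher, and 0 on the relative scale, where 0.0339% of all genes were called higher and the median of the 20 was 0.41. Timp4, an inhibitor of metalloproteinases, was at 12.6, 28.9, 4.20 and 21.9 CPM in WT1 to WT4 and 34.3, 55.0, 219, 75.0 and 115 CPM in KO1 to KO5, and differed by 2.48 (SE 0.505, limma adjusted p = 0.00312) as deposited and 1.50 (SE 0.484, limma adjusted p = 0.234) on the relative scale. WT2 lay just below KO1 for this gene, so the groups did not overlap in CPM, as for 18.7% of all genes. Timp3, an inhibitor bound to matrix, differed by 1.66 (SE 0.417, limma adjusted p = 0.00777), and the secreted proteases Adamts1 and Adamts9 by 1.74 (SE 0.418, limma adjusted p = 0.00675) and 1.62 (SE 0.409, limma adjusted p = 0.00786) as deposited. On the relative scale Timp3 differed by 0.69 (limma adjusted p = 0.359), Adamts1 by 0.76 (limma adjusted p = 0.38) and Adamts9 by 0.64 (limma adjusted p = 0.396).

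Sequence composition before the gene starts was described for the matrix genes with a RefSeq promoter entry. In the 250 bases upstream of each start, searched on both strands, GGGCGG was in 8 of 12 windows of 10 basement membrane genes (66.7%) and in 6 of 7 windows of 7 fibrillar genes (85.7%), against 32.7% of all 32851 windows. CCAAT was in 5 of 12 (41.7%) and 3 of 7 (42.9%) against 33.8%, and TATAAA in 0 of 12 and 2 of 7 (28.6%) against 12.4%. Median GC content was 63.2% for the basement membrane windows, 62% for the fibrillar windows and 52.4% for all. Matches of CCAAT and GGGCGG can share bases and were counted separately. The AT-rich Col3a1 window printed above (35.2% GC) was thus unlike the median of its own list, and the Hspg2 stretch held 70.8% GC.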

How the data were processed

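Ribosome-bound RNA was measured in 4 WT and 5 KO libraries. The authors deposited CPM, reads normalised to the library total, per the labels; per the submitters' processing notes, HISAT2 2.1.0, Trimmomatic 0.39, FastQC 0.11.9, R 4.0.2, edgeR 3.32.0 and GRCm38 (mm10) were named. Their roles, the counting program, strand use and annotation were not given in the sources used here; cDNA came from 2 to 5 ng of RNA by a low-input polyadenylated RNA kit with tagmentation, per the labels. Gene symbols, positions and exon lengths were taken from GENCODE M21 (11787 of 11802 identifiers matched).

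The tests were limma 3.58.1 (R 4.3.3) with a trend on log2(CPM + 1), over all genes, Benjamini-Hochberg adjusted p under 0.05 being a call; a minimum mean of 1 CPM removed 0 genes. Fold changes on this scale are understated at low CPM. Since 100% of nonzero CPM were whole multiples of 1 read within 0.1 read, reads were recovered for edgeR 4.0.16 (1 gene higher and 4 lower over all genes) and DESeq2 1.42.0 (29 higher and 112 lower). Ratios used exact permutation over 126 splits. The limma test was checked on simulated data. Alternatives were the pseudocount, the filter, the trend, array weights, quantile normalisation, the rRNAs, a replicate block and each library left out.

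The matrix genes and the gene lists were chosen with earlier results of these data known. Values in every library are given for the 7, 6, 4 and 3 most abundant genes of the basement membrane, fibrillar, other collagen and other laminin lists, and for Sparc, Fn1, Fbn1 and Eln. In the further lists the text names up to 4 called genes with the smallest p, and values in every library are given for P3h1, Pxdn, Itgb1 and Timp4, chosen after their values were seen. Lama5, Col4a5, Col8a1, Col23a1, Col7a1, Dcn, Pdgfra and Gsn were singled out after their values were seen.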

Additional observations from a re-analysis of the deposited data

Results flagged for a closer look

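Within a group, a library can stand apart from all others of its label; 48 groups of 4 or 5 libraries were examined over the named matrix genes, and 3 libraries stood apart by a gap test at the 95% level, which by chance alone marks about 1 in 20 such groups. Lamc1, the laminin gamma chain, was at 681.9 CPM in KO5, with the other KO libraries between 368 and 442 CPM. Nid1, which links laminin to type IV collagen, was at 528 CPM in KO5, with the others between 297 and 363 CPM. Col6a1, a type VI collagen chain, was at 425 CPM in WT2, with the other WT libraries between 209 and 238 CPM.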

How the results depend on the processing

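The 0 calls relative to the library median held in every alternative run, and the number of matrix genes called higher in the deposited CPM was the least stable result: 13 as reported, 4 without a variance trend in limma, 20 with array weights, and 1 (without WT1) to 20 (without WT4) with a library left out; it was 7 without WT2, 3 without WT3, KO3 or KO4, and 5 without KO5. The median of the basement membrane list in deposited values was then 0.93 to 1.48. Replicate numbers did not pair the libraries, since deviations from the group means correlated at 0.029, −0.022, −0.04 and 0.039 for numbers 1 to 4, and the replicate block, in which KO5 has no partner, gave 6 calls, with −0.20 for Col3a1 as deposited and −0.068 for Lamc1 on the relative scale. With a covariate for the mitochondrial rRNA share, added after seeing the data, 0 were called, the basement membrane median was 0.37 as deposited and 0.0046 on the relative scale, the fibrillar median was 0.45 on the relative scale, and the difference between the lists was −0.45; leaving the rRNAs out of the totals gave 0.60 and 0.034. The cause was not tested. Signs turned in deposited values with array weights (−0.43 for Col3a1, −0.56 for Col1a1, −0.32 for Col1a2, −0.36 for Col5a1, −0.26 for Col6a1, −0.12 for Col6a2 and −0.055 for Fn1) and with the covariate (0.070 for Col6a3, −0.51 for Lama2 and −0.024 for Eln). In relative values they turned with array weights (−0.028 for Lamc1 and 0.22 for Lama3), a pseudocount of 0.5 (0.0032 for Col4a4), edgeR (−0.066 for Lamc1 and −0.0040 for Lamb2), DESeq2 (−0.060 for Lamc1), the rRNAs left out (0.039 for Col5a2, 0.034 for Col5a3, 0.25 for Lama3, 0.45 for Col4a4 and 0.051 for Fbn1) and the covariate (−0.074 for Col4a2, −0.30 for Col15a1, −0.0092 for Lamc1, −0.073 for Lamb2, 0.45 for Col1a1, 0.68 for Col1a2, 0.096 for Col5a2, 0.62 for Col5a3, 0.37 for Col6a2, −0.88 for Lama2, 0.35 for Col4a4 and −0.33 for Sparc). With a library left out, deposited differences spanned −0.20 to 0.50 for Col3a1, −0.31 to 0.57 for Col1a1, −0.011 to 0.52 for Col5a1, −0.015 to 0.46 for Col6a1, −0.27 to 0.033 for Col6a3 and −0.11 to 0.43 for Fn1, and relative ones −0.068 to 0.18 for Lamc1, −0.30 to 0.57 for Lama2, −0.67 to 0.49 for Lama3, −0.26 to 0.45 for Col4a4, −0.85 to 0.039 for Col5a3 and −0.076 to 0.27 for Sparc. Depth limits the genes with low levels: in WT4 a count of 0 allows 2.90 CPM.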

Other observations

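The libraries did not order the matrix genes in a single way. KO1 had the lowest relative level of the 9 libraries for 4 of the 13 basement membrane genes and the highest for 2 others, the laminin chains Lama4 and Lamb1, while KO5 had the highest level for 4 of the 13. Among the chains of low abundance, Col7a1 of anchoring fibrils was at 77.1 CPM in KO1 and at 6.65 to 36.3 CPM in the other 8 libraries, and Lama3 was at 43.6 CPM in WT3 and at 1.80 to 33.4 CPM in the other 8.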
